A study of Mus musculus with 12 samples.

Results

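Gasdermins are the proteins that open pores in a dying cell's membrane, and 5 mouse genes of the family were followed here in intestinal RNA. They are Gsdmc, Gsdmc2, Gsdmc3 and Gsdmc4, which lie side by side and encode gasdermin C proteins, and Gsdmd, which encodes gasdermin D. The 5 were taken by name from a table of 47643 genes. They were chosen by measured values: Gsdmc3 was higher without epithelial Ppara than with it on a high-fat diet, so that difference is described for all members without a test. Of the 5 genes, 4 passed the filter on low counts. The exception was Gsdmc, which had at most 1.02 expected counts in any library.

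The 12 libraries came from intestines of male C57BL/6 mice that were 7 to 8 weeks old. Every animal carried floxed Ppara alleles, the gene of PPARA, a nuclear receptor that senses fatty acids and switches on their oxidation. The floxed group (Pparafl/fl, titled WT) served as the control genotype, and the IEKO group (PparaΔIE, titled KO) lacks Ppara in the intestinal epithelium, as its name states in the usual notation. Each genotype received chow or a diet labelled 60% HFD over 10 days, with 3 libraries in each of the 4 groups. The labels name no recombinase line or promoter, no deleted exons and no gut segment. They do not say that libraries came from separate mice, so the spread behind each p-value is that between samples and may be technical. Library totals ran from 33620991 to 53959367 expected counts, the read numbers that the RSEM program assigns to a gene and that need not be whole. Ppara itself was lower in every IEKO library than in every floxed library of the same diet, at 12.3 ± 3.64 against 19.8 ± 2.01 CPM on chow and 13.3 ± 3.46 against 36.6 ± 2.79 CPM on HFD (SD, n = 3 each). CPM is the count per 1000000 counts after scaling for library size.

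A gasdermin is made as an inactive chain whose pore-forming front part is held in check by its rear part. A protease cuts the linker between them, the front parts assemble into a membrane pore, and the cell leaks or bursts, a death called pyroptosis. Gasdermin D is the widely expressed member that inflammatory caspases cut downstream of inflammasomes. Gasdermin C genes are known from the gut epithelium, where the type 2 cytokines IL-4 and IL-13, acting through STAT6, raise them during worm infection.

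The Gsdmc genes are near copies, and the sequences show what their counts can and cannot separate. All 4 are on the minus strand of chromosome 15 in build mm10, within 136330 bases from 63775968 to 63912297, and each printed sequence is exonic. Gsdmc spans 63775968 to 63808759, Gsdmc2 spans 63824346 to 63845177, Gsdmc3 spans 63857724 to 63878558 and Gsdmc4 spans 63891264 to 63912297. Gsdmd is on the plus strand of the same chromosome at 75862327 to 75867408, which is 11.95 Mb from the cluster. Ppara is on chromosome 15 as well, with its start 9.87 Mb from Gsdmd and 21.82 to 21.93 Mb from the Gsdmc genes. The first 90 coding bases follow, 5′ to 3′ from the start codon, read from GENCODE vM21. Capitals mark the bases that differ from Gsdmc3. Compared position by position without gaps, Gsdmd differs at 59 of the 90, and that line is left without capitals.
Gsdmc: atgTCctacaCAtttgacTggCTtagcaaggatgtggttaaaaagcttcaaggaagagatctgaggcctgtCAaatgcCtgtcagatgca
Gsdmc2: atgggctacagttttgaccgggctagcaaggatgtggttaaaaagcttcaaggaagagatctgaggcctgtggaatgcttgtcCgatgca
Gsdmc3: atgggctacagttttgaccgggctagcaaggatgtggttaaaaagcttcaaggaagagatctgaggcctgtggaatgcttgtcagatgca
Gsdmc4: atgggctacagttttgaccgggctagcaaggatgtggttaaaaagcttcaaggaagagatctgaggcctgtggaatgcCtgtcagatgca
Gsdmd: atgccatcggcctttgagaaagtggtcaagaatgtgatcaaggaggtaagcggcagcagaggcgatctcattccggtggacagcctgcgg

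In this stretch Gsdmc2 and Gsdmc4 each differed from Gsdmc3 at 1 base, and Gsdmc at 10. Over the whole coding sequence Gsdmc2 and Gsdmc3 were 97.1% identical, with 42 differences in 1440 bases. Gsdmc4 was 93.8% identical to each of them, Gsdmc 87.0% to 88.1% identical to the other Gsdmc genes, and Gsdmd 62.3% to 63.3% identical to the Gsdmc genes. Of 1440 coding positions, 1325 were alike in Gsdmc2, Gsdmc3 and Gsdmc4. The longest stretch alike in all 3 held 171 bases, from coding position 519 to 689, and a read that falls wholly inside it cannot be assigned to 1 gene by its sequence. It is shown because it is where the expected counts rest on sharing.
Alike in all 3: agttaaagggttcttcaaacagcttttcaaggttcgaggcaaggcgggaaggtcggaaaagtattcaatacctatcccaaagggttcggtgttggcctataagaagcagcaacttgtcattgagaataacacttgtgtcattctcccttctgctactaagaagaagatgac

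The stretch of 60 bases with most differences shows the opposite case. It covers coding positions 803 to 862 of Gsdmc2 and Gsdmc3 and 809 to 868 of Gsdmc4, and capitals mark the 16 positions at which the 3 genes are not all alike.
Gsdmc2: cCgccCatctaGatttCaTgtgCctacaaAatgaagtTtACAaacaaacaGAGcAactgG
Gsdmc3: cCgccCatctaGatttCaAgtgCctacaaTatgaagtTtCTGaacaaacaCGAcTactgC
Gsdmc4: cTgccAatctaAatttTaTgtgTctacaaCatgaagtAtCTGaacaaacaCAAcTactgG

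Over whole transcripts, 51.3% of the 50-base windows of Gsdmc2, 46.0% of those of Gsdmc3 and 39.0% of those of Gsdmc4 also occurred in another gasdermin gene. With 100-base windows these shares were 28.6%, 28.4% and 20.2%. For Gsdmc3 the partner was mostly Gsdmc2, which held 41.1% of its 50-base windows, while Gsdmc4 held 25.8%. Gsdmd shared 0% with them at either length. RSEM divides reads that match several genes, so the single values of Gsdmc2, Gsdmc3 and Gsdmc4 are uncertain, and their sum is given beside them. The sources used here give neither the read length nor the strand setting of the count.

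Gsdmd was the highest of the 5 per length in every group. Per kilobase of exon its mean level on chow was 116 CPM for floxed and 117 for IEKO, and on HFD it was 111 for floxed and 102 for IEKO. Gsdmc4 came next at 39.9, 44.4, 23.3 and 37.5 CPM per kilobase in the same order of groups. Gsdmc2 followed at 25.8, 29.5, 11.7 and 19.5, and Gsdmc3 at 13.2, 15.7, 6.20 and 11.5. The order Gsdmd, Gsdmc4, Gsdmc2, Gsdmc3 was thus the same in all 4 groups of means. Gsdmc held 4.04 expected counts over all 12 libraries together. No library reached the floor of 3 counts, which amounts to 0.0568 to 0.0917 CPM. In bulk RNA, fewer cells of a type and less RNA per cell cannot be told apart.

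**Figure D1:**
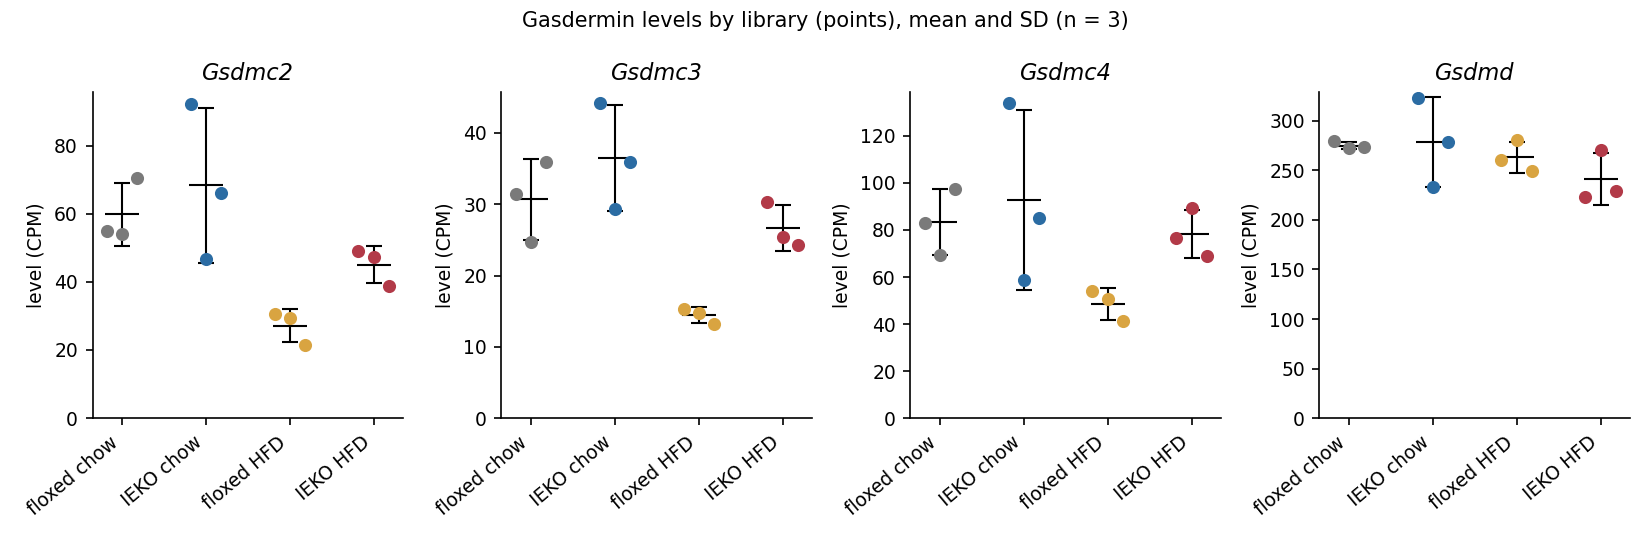
Levels of Gsdmc2, Gsdmc3, Gsdmc4 and Gsdmd in CPM, with 1 point per library, a bar at the mean and whiskers of 1 SD (n = 3) in each of the 4 groups. The floxed HFD libraries are the lowest for the 3 Gsdmc genes, between 13.2 and 15.3 CPM for Gsdmc3, while Gsdmd stays between 223 and 323 CPM throughout.

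On chow, Gsdmc3 measured 31.4, 24.7 and 36 CPM in floxed libraries 1, 2 and 3, while the IEKO libraries held 44.2, 29.3 and 36 CPM in that order. On HFD the floxed libraries held 15.3, 14.8 and 13.2 CPM of it, against 30.4, 25.4 and 24.2 CPM in the IEKO libraries. All 3 floxed HFD libraries were below all 9 others, and the IEKO libraries on HFD reached into the range of the chow libraries.

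For Gsdmc2 the floxed chow libraries gave 55.0, 53.9 and 70.4 CPM, and the IEKO chow libraries gave 92.2, 46.8 and 66.0. On HFD the values were 30.5, 29.4 and 21.5 CPM for floxed, against 49.0, 47.3 and 38.9 for IEKO. The floxed HFD libraries were again the lowest, and here every IEKO HFD library also lay below every floxed chow library.

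Gsdmc4 was at 83.1, 69.4 and 97.5 CPM in floxed chow, against 134, 58.6 and 85.1 in IEKO chow. Its HFD values were 54.0, 50.8 and 41.1 CPM for floxed, against 76.7, 89.2 and 68.9 for IEKO. IEKO chow library 1 held the highest value of all 3 genes, and IEKO chow library 2 the lowest chow value of Gsdmc2 and Gsdmc4.

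On chow, Gsdmd gave 279, 273 and 273 CPM for floxed, against 323, 234 and 279 for IEKO. On HFD it gave 260, 280.4 and 249 CPM for floxed, against 223, 271 and 229.6 for IEKO. Its groups overlapped in every pairing but 1: the IEKO HFD libraries were all below the floxed chow libraries. The widest spread was within IEKO chow, at 279 ± 45.0 CPM (SD, n = 3).

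The difference between genotypes on HFD, which chose these genes, was of like size for the 3 expressed Gsdmc genes. The log2 fold change, IEKO over floxed, was 0.89 for Gsdmc3 (SE 0.16), 0.73 for Gsdmc2 (SE 0.24) and 0.69 for Gsdmc4 (SE 0.27). These are 1.85-fold, 1.66-fold and 1.61-fold, and for Gsdmd the value was -0.13 (SE 0.11). The IEKO HFD libraries were all above the floxed HFD libraries for 3 of the 4 genes, beside 9.27% of the 17602 genes tested, and since the difference chose the genes nothing is read from that count. The summed counts of Gsdmc, Gsdmc2, Gsdmc3 and Gsdmc4 gave 0.73 (SE 0.22), and this sum does not depend on how reads were divided among the 4 genes. Smooth muscle genes were another measure that moved with this difference. Their summed level was 263 to 292 CPM in IEKO HFD against 194 to 232 CPM in floxed HFD. Most of that sum was Mylk, at 172 ± 24.6 and 161 ± 4.51 CPM (SD, n = 3), which did not pass (0.10, adjusted p = 0.683). Of the 10 genes of the list 1 rose with adjusted p under 0.05, beside 0.29% of all genes called. It was Synm, an intermediate filament protein, at 0.0382. The median of the 10 was 1.03 on the log2 scale. None of the 10 was at 0. With a score of these genes in the model the values were 0.43 for Gsdmc3 (SE 0.26), 0.07 for Gsdmc2 (SE 0.36) and 0.07 for Gsdmc4 (SE 0.46). That score was 0.40 to 0.67 in the IEKO HFD libraries and -0.72 to 0.13 in the floxed HFD libraries, without overlap. On HFD score and genotype therefore cannot be told apart. The part of smooth muscle in the difference was not tested.

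**Figure D2:**
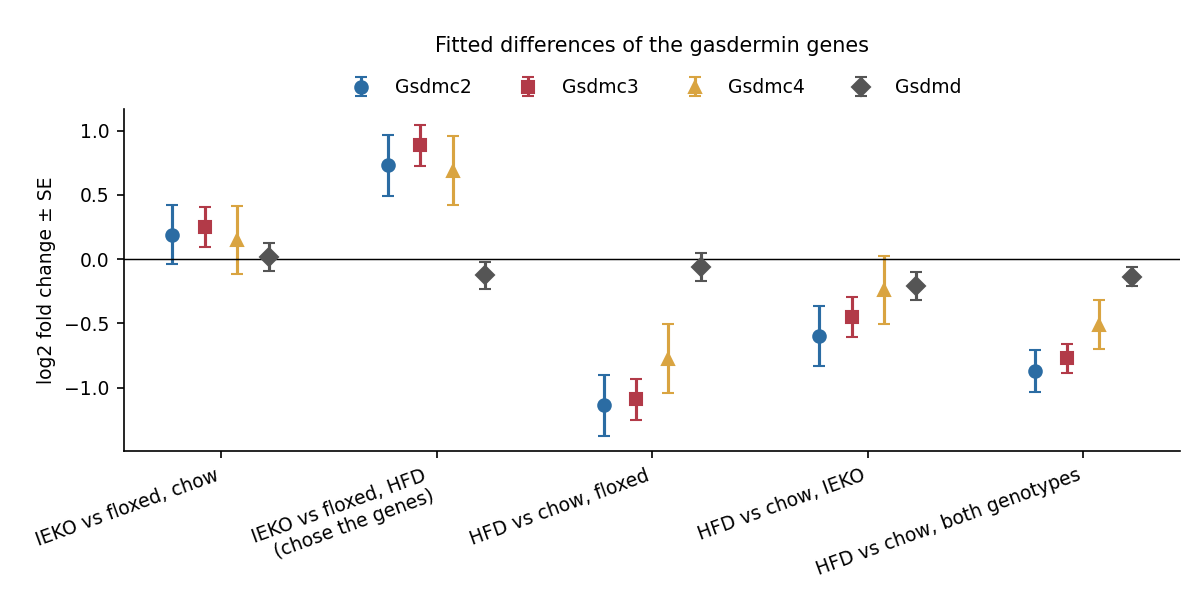
Log2 fold changes with SE of the 4 measured genes in 5 comparisons, from the fit of 12 libraries. The 3 Gsdmc genes lie at 0.69 to 0.89 in the comparison that chose them, at 0.15 to 0.25 between genotypes on chow, and below 0 in each diet comparison, while Gsdmd lies between -0.21 and 0.02.

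The chow libraries, which played no part in choosing the genes, ask whether the genotypes also differ without the diet. None of the 4 measured genes passed the test, beside 0.125% of all genes tested, and none had an unadjusted p under 0.05, beside 13% of all genes. The log2 fold change, IEKO over floxed, was 0.25 for Gsdmc3 (SE 0.16, 95% interval -0.09 to 0.58, adjusted p = 0.522 by edgeR's quasi-likelihood test with Benjamini-Hochberg adjustment). It was 0.19 for Gsdmc2 (-0.32 to 0.70, adjusted p = 0.763), 0.15 for Gsdmc4 (-0.45 to 0.75, adjusted p = 0.85) and 0.02 for Gsdmd (-0.21 to 0.25, adjusted p = 0.957). Genotypes overlapped on chow for each of the 4 genes, whereas 22.1% of all genes had groups that did not. Whether the genotype difference itself changed with diet was not tested for these genes, since that comparison contains the difference that chose them. Without IEKO chow library 1 the values were -0.08 for Gsdmc2, -0.21 for Gsdmc4, -0.10 for Gsdmd and 0.09 for Gsdmc3.

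On HFD 2 of the 4 measured genes fell when both genotypes were weighed equally, a comparison that does not use the difference that chose them. Gsdmc3 fell by 0.77 on the log2 scale (SE 0.11, adjusted p = 0.000508), to 1.71-fold lower on HFD. Gsdmc2 fell by 0.87 (SE 0.16, adjusted p = 0.00425), to 1.83-fold lower. Of all genes tested 13.3% fell and 12.9% rose in this comparison, with a median log2 change of 0.01. Gsdmc4 did not pass, at -0.51 (SE 0.19, 95% interval -0.93 to -0.09, adjusted p = 0.0766), and nor did Gsdmd, at -0.14 (SE 0.08, interval -0.30 to 0.03, adjusted p = 0.21). Without IEKO chow library 2 both passed, Gsdmc4 at -0.64 (adjusted p = 0.00847) and Gsdmd at -0.20 (adjusted p = 0.032). The sum of Gsdmc, Gsdmc2, Gsdmc3 and Gsdmc4 gave -0.67 (SE 0.16).

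Within floxed mice the diet difference was -1.14 for Gsdmc2 (SE 0.23), -1.09 for Gsdmc3 (SE 0.16) and -0.78 for Gsdmc4 (SE 0.27), and within IEKO mice it was -0.60, -0.45 and -0.24 with the same errors. Without IEKO chow library 1 the IEKO values were -0.34 for Gsdmc2, -0.31 for Gsdmc3 and 0.10 for Gsdmc4, so that the last turned its direction. These share the HFD libraries with the difference that chose the genes and were not tested. All floxed HFD libraries lay below all floxed chow libraries for 3 of the 4 genes, beside 18.6% of genes tested. In IEKO the diets overlapped for all 4, beside 13.1% of genes that were lower on HFD without overlap. Gsdmd was at -0.06 in floxed and -0.21 in IEKO (SE 0.11 each).

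Markers of gut segment and of epithelium moved with diet too. A list of 7 genes typical of the proximal small intestine, among them lactase (Lct) and the fatty acid binding protein Fabp1, summed on chow to 141 to 171 CPM for floxed and 227 to 232 for IEKO. On HFD the sums were 235 to 512 CPM for floxed and 235 to 338 for IEKO. Of the 7, 3 rose on HFD, 0 fell and none was at 0, beside 12.9% of all genes that rose and 13.3% that fell. Fabp1 rose by 3.66 (adjusted p = 0.000642) and averaged 96.4 ± 63.2 CPM in floxed HFD against 13.4 ± 4.46 in IEKO HFD (SD, n = 3). Onecut2 and Slc40a1 were at -0.75 and -0.42 and did not pass. A score of this list thus also carries the diet change of its own genes. With a score of this list in the model neither call held: Gsdmc3 was at -0.48 (SE 0.22, adjusted p = 0.409) and Gsdmc2 at -0.63 (SE 0.35, adjusted p = 0.548). The same model called 39 genes in all against 4613 without the score. Its part in the diet difference was not tested, and score and diet largely go together: 5 of the 6 HFD scores (0.24 to 1.09) were above every chow score (-0.89 to 0.01), and that of IEKO HFD library 1 was -0.07.

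Markers of the ileum, the last part of the small intestine, were high in every library. The 6 of them, with the bile acid transporters Slc10a2, Slc51a and Slc51b among them, summed to 7355 to 10790 CPM in every group. Of 11 colon markers 5 were under 0.1 CPM in every library, among them the hindgut genes Hoxb13 and Hoxd13 and the water channel Aqp8. With diet 1 of the 6 tested colon markers rose and 2 fell, with a median log2 change of -0.37. Of the 6 ileal markers 1 rose and 1 fell, with a median of -0.02. Over all genes tested 12.9% rose and 13.3% fell.

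Epithelial markers summed on chow to 16720 to 17040 CPM for floxed and 13800 to 16970 for IEKO, and on HFD to 13040 to 14650 for floxed and 11800 to 13970 for IEKO. Of the 9 genes 5 fell on HFD, 0 rose and none was at 0, beside 13.3% of all genes that fell and 12.9% that rose. Set against 1000 CPM of these markers, Gsdmc3 stood on chow at 1.83 ± 0.337 for floxed and 2.35 ± 0.240 for IEKO, and on HFD at 1.06 ± 0.102 for floxed and 2.13 ± 0.422 for IEKO (SD, n = 3). The floxed HFD group had the lowest mean on that scale for Gsdmc2 and Gsdmc4 too. For Gsdmc4 the IEKO mean was 5.88 ± 1.85 on chow and 6.25 ± 1.21 on HFD, with overlap, which is the other direction from its CPM. Gsdmd also turned on that scale: floxed libraries held 16.3 to 16.4 on chow and 18.7 to 19.96 on HFD without overlap, and the IEKO means were 18.01 ± 1.07 on chow and 19.2 ± 2.90 on HFD (SD, n = 3). Krt8, the highest of the 9 markers, itself fell by 0.45 with diet (adjusted p = 0.000975), whereas Epcam, Vil1, Cdh1 and Cdx1 did not pass. The scale thus also carries the diet change of its own markers, and no share over all genes was computed on it. Of 8 genes of villus tip enterocytes 1 rose on HFD and 1 fell, with a median log2 change of 0.03. The riser was Apoa4, an apolipoprotein of fat absorption, which rose by 2.64 (adjusted p = 0.000197).

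**Figure D3:**
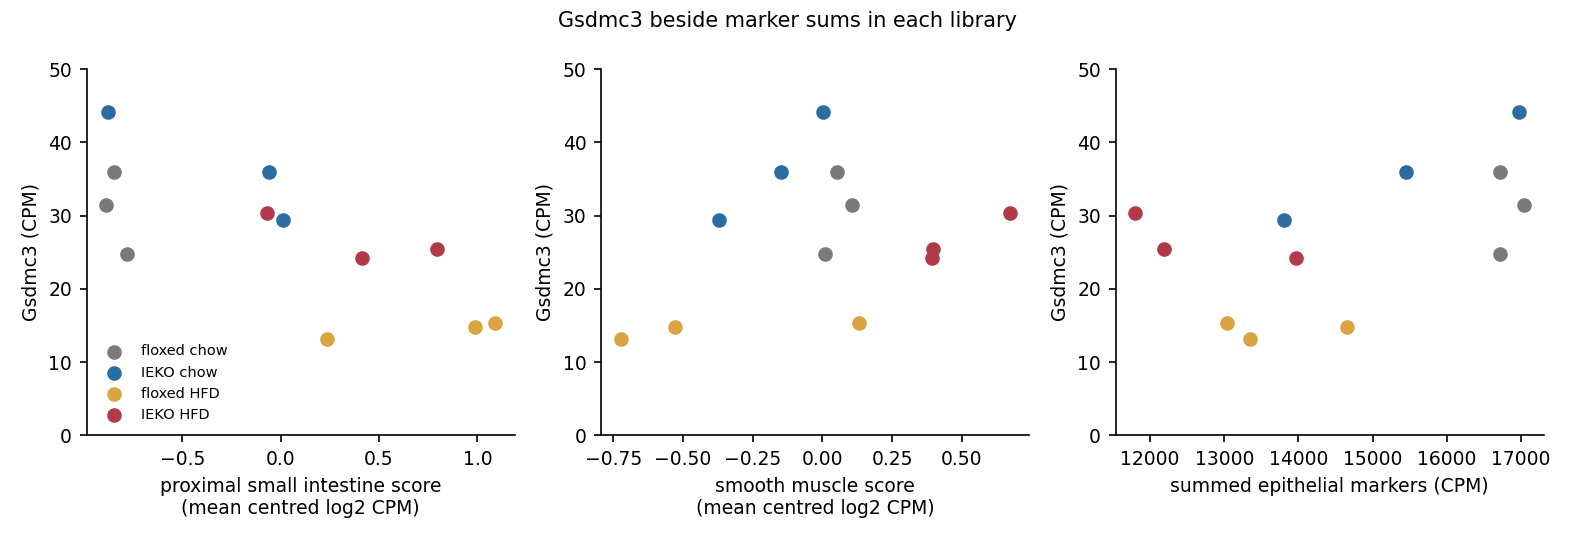
Gsdmc3 in CPM by library against a proximal small intestine score, a smooth muscle score (each the mean centred log2 CPM over its list) and the summed epithelial markers in CPM, coloured by group. Floxed HFD libraries 1 and 2 have the highest proximal scores (1.09 and 0.99), and the IEKO HFD libraries the highest muscle scores (0.40 to 0.67).

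The mix of the 3 Gsdmc genes was also compared, as a share of their joint count. On chow Gsdmc2 made up 34.5% ± 2.01 for floxed and 34.7% ± 0.59 for IEKO, and on HFD 29.97% ± 1.41 for floxed and 30.02% ± 1.19 for IEKO (SD, n = 3). Its share in every HFD library (28.4% to 31.4%) was below that in every chow library (32.4% to 36.5%), in both genotypes. Gsdmc4 held 47.9% and 46.2% in the 2 chow groups against 53.9% and 52.2% in the 2 HFD groups, and IEKO HFD library 1 (49.2%) lay inside the chow range. Gsdmc3 held 16.1% to 19.1% in the group means. The Gsdmc2 share was thus lower on HFD in both genotypes by like amounts. The shares were first seen in these data, so no test is given, and they depend on how RSEM divided the reads.

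**Figure D4:**
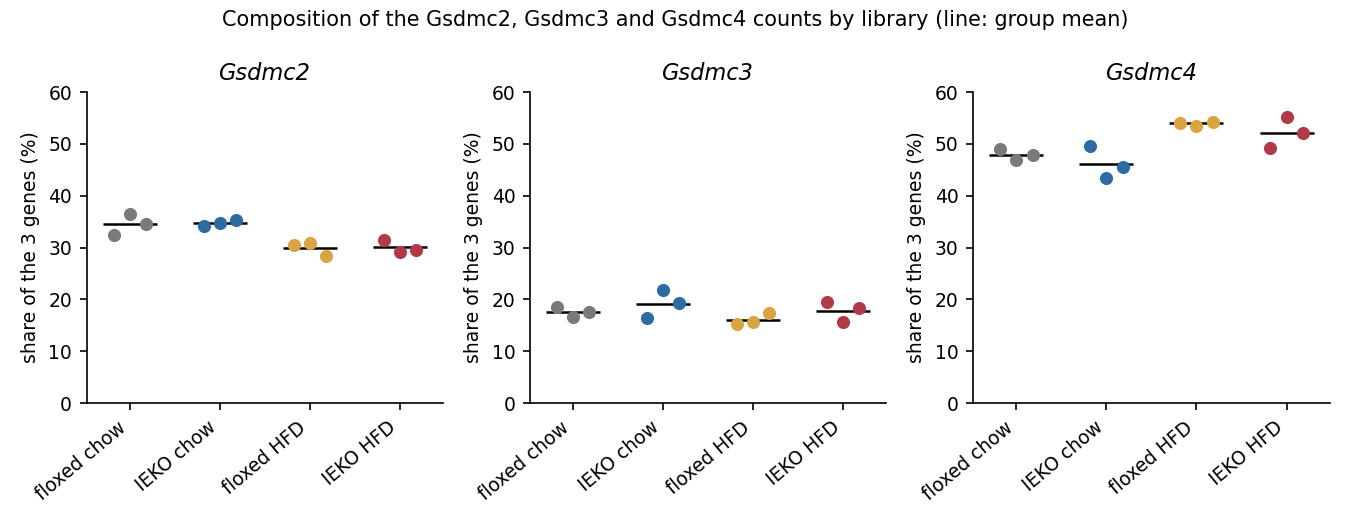
Percentage of the joint Gsdmc2, Gsdmc3 and Gsdmc4 count held by each gene, with 1 point per library and a line at the group mean. The Gsdmc2 share is 28.4% to 31.4% in the 6 HFD libraries and 32.4% to 36.5% in the 6 chow libraries.

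A pseudogene inside the cluster had a profile partly like that of the Gsdmc genes. Gsdmcl2 lies between Gsdmc3 and Gsdmc4 on the plus strand, and none of its 50-base windows occurred in a Gsdmc transcript on either strand. It measured 2.99, 2.26 and 3.86 CPM in floxed chow, against 4.93, 3.11 and 3.56 in IEKO chow. On HFD it was at 1.91, 2.08 and 2.29 CPM for floxed, against 3.03, 3.49 and 3.09 for IEKO. There IEKO lay above floxed without overlap as for its neighbours, beside 9.27% of all genes tested. Its floxed diets overlapped (2.26 CPM on chow, 2.29 on HFD), whereas those of Gsdmc2, Gsdmc3 and Gsdmc4 did not. Gsdmcl2 passed no test: the log2 fold change was 0.61 between genotypes on HFD (adjusted p = 0.249), 0.34 on chow (adjusted p = 0.50) and -0.41 with diet (adjusted p = 0.0545). Gsdmcl1 had no count, and Gsdmcl-ps had 2 to 17 counts per library.

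No other gasdermin gene was called. Gsdme, which granzyme B cuts, was the only other gasdermin gene with a level near those of the members, at group means of 13.7 to 14.8 CPM per kilobase. Its diet difference was -0.05 (SE 0.08, adjusted p = 0.684). Gsdma and Gsdma2 averaged 0.303 and 0.112 CPM per kilobase, Gsdma3 had no count and Pjvk had at most 1. Of the 3 that could be tested 0 passed in any comparison. Outside the family, the 3 tested protein-coding genes within 1 Mb of the cluster gave no genotype call, and Fam49b alone fell with diet, by 0.20 (adjusted p = 0.0377). Within 1 Mb of Gsdmd, 59 genes were tested, of which 4 rose and 9 fell with diet and 0 passed between genotypes. Over all genes tested 12.9% rose and 13.3% fell with diet, and 0.125% passed between genotypes on chow and 0.29% on HFD.

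The genes that act around gasdermins were taken from lists ordered by their roles. Between genotypes no gene of the pathway lists passed on chow or on HFD, where 0.29% of all genes did. With diet the proteases had the largest share of called genes among these lists. Of the 8 tested genes for gasdermin-cutting proteases 7 fell, 0 rose and the median was -0.64. Elane and Ctsg of neutrophils had no count. For these and the lists that follow, the shares over all genes tested were 13.3% fallen and 12.9% risen with diet. Gzmb, the granzyme that cuts gasdermin E, fell by 1.95 (SE 0.25, adjusted p = 0.000686), from 34.8 ± 3.93 to 9.59 ± 3.87 CPM in floxed and from 30.1 ± 10.98 to 7.36 ± 1.99 CPM in IEKO (SD, n = 3). Gzma, which cuts human gasdermin B, fell by 1.28 (adjusted p = 0.00285). Casp4, the mouse caspase-11 that senses lipopolysaccharide inside cells and cuts gasdermin D, fell by 0.92 (adjusted p = 0.000309), from 51.3 ± 0.774 to 26.6 ± 0.362 CPM in floxed and from 57.1 ± 17.8 to 30.5 ± 2.98 CPM in IEKO. Casp1, the caspase that inflammasomes switch on, had the highest level per length, 78.1 CPM per kilobase, and fell by 0.27 (adjusted p = 0.0115). Casp8, reported to cut gasdermin C, was at -0.17 (adjusted p = 0.112). The T cell list, another home of granzymes, gave 0 of 10 genes called with diet and a median of 0.06, and the lists of B and plasma cells, myeloid cells, and mast cells and eosinophils gave 0 of 8, 0 of 8 and 0 of 4. Without the 2 chow libraries that lay between the others of their group 6 of the 8 proteases fell. With the proximal score in the model 0 of the 8 were called.

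Inflammasome sensors and adaptors switch on the inflammatory caspases. Of 15 tested 2 rose, 3 fell and 10 did not pass, with a median of 0.09, beside the 12.9% of all genes that rose and the 13.3% that fell. Nlrp10 fell by 2.23 (adjusted p = 0.000309) at a level of at most 1.38 CPM in any group mean. Pycard, the adaptor ASC, fell by 0.44 (adjusted p = 0.00357) and Aim2, a sensor of cytosolic DNA, fell by 0.41 (adjusted p = 0.00556). Nlrp9b rose by 0.32 (adjusted p = 0.0169) and Nlrp6, a sensor of the gut epithelium, by 0.20 (adjusted p = 0.0266). The highest per length were the flagellin sensors' genes Naip6 and Naip5, at 68.3 and 50.5 CPM per kilobase, with diet differences of -0.13 and 0.09 that did not pass. Without those 2 chow libraries 0 rose and 3 fell.

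Genes for what leaves the cell and for membrane repair followed. Of 5 tested cytokine and rupture genes 1 rose and 2 fell, with a median of -0.39. Il33, an alarmin, rose by 1.03 (adjusted p = 0.00585). Il1rn, the interleukin-1 receptor antagonist, fell by 0.93 (adjusted p = 0.000794). Ninj1, which ruptures the membrane after pore formation, fell by 0.29 (adjusted p = 0.0422). Il18, a cytokine that passes gasdermin D pores, was at -0.39 (adjusted p = 0.0823). Of 12 tested genes of ESCRT-III, the machinery that pinches off damaged membrane, 0 rose and 5 fell with a median of -0.13. The smallest p belonged to Chmp1a, which fell by 0.25 (adjusted p = 0.0021), then Chmp6, which fell by 0.25, and Chmp2a, which fell by 0.26. Vps4a, the enzyme that takes the ESCRT-III filament apart, fell by 0.17. Chmp4b, with Chmp2a the highest per length at 77.9 and 87.8 CPM per kilobase, fell by 0.18. Without the 2 chow libraries 1 of the 5 cytokine and rupture genes rose and 1 fell, and 3 of 12 ESCRT-III genes fell.

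The type 2 axis was looked at because it is the known inducer of gasdermin C. The cytokine genes Il4, Il5, Il13, Il25 and Tslp and the decoy receptor gene Il13ra2 did not pass the filter on low counts. Of 6 tested receptor and signalling genes 2 fell: Il4ra, a receptor chain for both cytokines, by 0.36 (adjusted p = 0.00523), and Il13ra1, which fell by 0.27 (adjusted p = 0.0348). Stat6 was at 0.06 (adjusted p = 0.339). Of 11 tested genes taken as targets of these cytokines, most of them epithelial and some of mast cells, 1 rose and 4 fell. Their median was 0.01. Retnlb, a goblet cell protein against worms, fell by 3.33 (SE 0.51, adjusted p = 0.000916) from a low level, 1.29 ± 0.193 to 0.104 ± 0.0515 CPM in floxed and 2.18 ± 1.91 to 0.262 ± 0.115 CPM in IEKO (SD, n = 3). Sprr2a2, a small proline-rich epithelial protein, fell by 0.81 (adjusted p = 0.000663), from 3456 ± 105 to 1821 ± 152 CPM in floxed and from 3778 ± 1169 to 2318 ± 359 CPM in IEKO. Sprr2a1 and Sprr2a3, near copies of it, fell by 0.60 and fell by 1.64, and their reads may be shared. Itln1, the lectin intelectin 1, rose by 0.38 (adjusted p = 0.00318), and Fcgbp, the highest of the list per length, was at 0.05 (adjusted p = 0.708). Markers of tuft cells, which start the type 2 circuit, gave 2 risen and 0 fallen of 10 with diet. On chow 1 of 10 rose in IEKO, the taste channel gene Trpm5 by 0.83 (adjusted p = 0.0493), beside 0.125% of all genes called. That value is near the threshold, and the 22 calls on chow became 1 to 517 with 1 library left out. Without the 2 chow libraries 1 of 6 signalling genes fell, 1 target rose and 4 fell, and 0 of the 10 tuft cell markers was called with diet. With the proximal score in the model no gene of any of these lists was called with diet, and both of these checks on the lists were added after the data were seen.

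**Figure D5:**
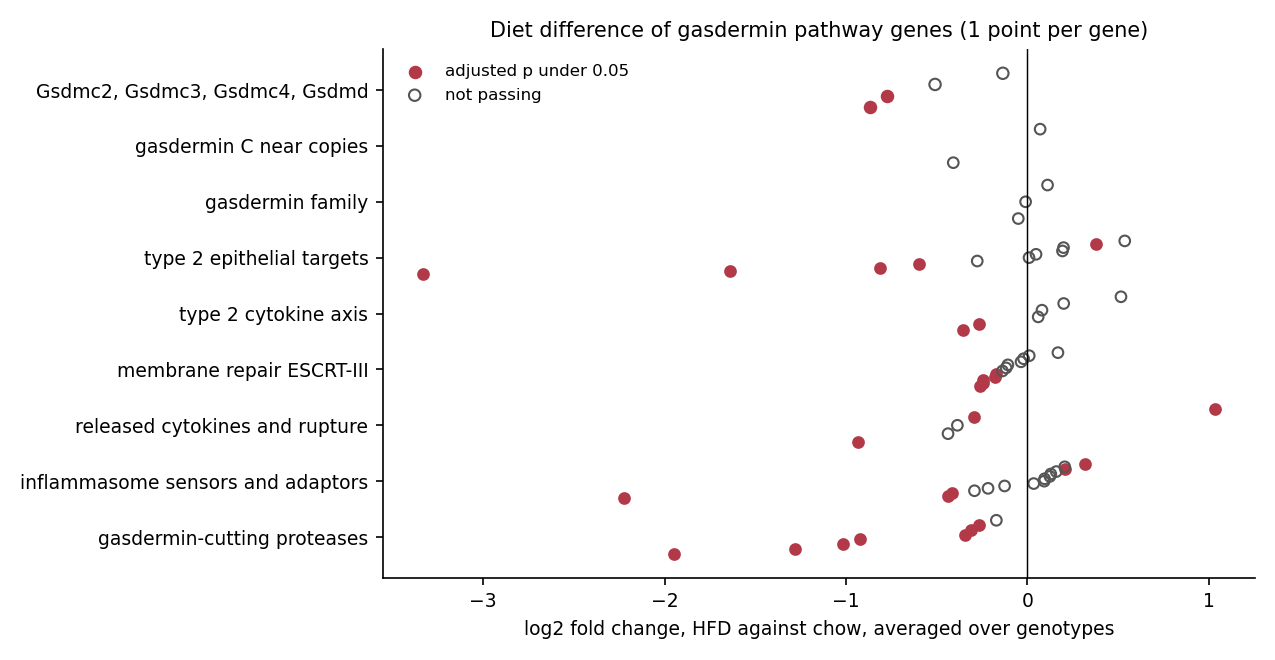
Log2 fold changes of HFD against chow, averaged over genotypes, with 1 point per tested gene in the member set and 8 lists, filled where adjusted p was under 0.05. All 8 protease points lie below 0, from -1.95 to -0.17, and 7 of them are filled.

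Genes with a profile most like that of Gsdmc3 were ranked by Pearson correlation of log2 CPM over the 12 libraries, among 11001 genes. The libraries share group and depth, so the values are descriptions. The highest were Gbp3 (r = 0.917), Slfn5 (0.914), Fam204a (0.91), Fam83c (0.908), Ly6a (0.905) and Ppcdc (0.903), and after removal of group means they were 0.799, 0.753, 0.54, 0.723, 0.612 and 0.602. Gbp3 and Slfn5 belong to families of interferon-induced proteins. Ly6a, a surface protein encoded within 1 Mb of Gsdmd, averaged on chow 19.4 ± 0.299 CPM for floxed and 20.02 ± 7.53 for IEKO, and on HFD 7.55 ± 0.744 for floxed and 13.6 ± 3.41 for IEKO (SD, n = 3). The lowest were Gtf3c3 (r = -0.945), Aqp3 (-0.927) and Isoc1 (-0.926). Aqp3, a channel for water and glycerol, ran the other way, at 1.497 ± 0.331, 1.22 ± 0.445, 14.7 ± 2.75 and 4.001 ± 1.75 CPM in the same order of groups.

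Among the members themselves, r over the 12 libraries was 0.963 for Gsdmc2 with Gsdmc3, 0.938 for Gsdmc2 with Gsdmc4 and 0.899 for Gsdmc3 with Gsdmc4, and after removal of group means 0.869, 0.949 and 0.847. The part of shared reads in these values was not tested. Gsdmcl2, which shares no window, gave 0.88 with Gsdmc3, or 0.744 after removal of group means. Gsdmd gave 0.482 with Gsdmc2, 0.286 with Gsdmc3 and 0.524 with Gsdmc4, and after removal of group means 0.745, 0.49 and 0.85. The profiles nearest to Gsdmd were those of Ykt6, a SNARE protein (r = 0.956), Kptn (0.934) and Rnf121 (0.93), with 88.5 ± 4.24 and 83.5 ± 3.94 CPM of Ykt6 in floxed and IEKO HFD.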

How the data were processed

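The authors deposited 1 table of expected counts per gene, not scaled between the 12 libraries. Per the submitters' processing notes, Trimmomatic, STAR, Picard, RSEM and build mm10 were used, while the sources used here give neither roles nor versions, annotation release or strand setting. Between 12.3% and 13.2% of genes per library had a value that was not whole (tolerance 1e-09). Gene IDs were matched to GENCODE vM21 without their version, and 47224 of 47643 matched. Counts were rounded and tested in R 4.3.3 with edgeR 4.0.16 (robust quasi-likelihood fit of 4 group means, TMM scaling, default filter), which left 17602 genes. Benjamini-Hochberg adjustment ran over all of these, threshold 0.05, and the test was checked on simulated data. Exon length for CPM per kilobase is the union of annotated exons. DESeq2 1.42.0 was an alternative. Sequences were aligned with Biopython 1.88.

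The genes, lists and tests were chosen with earlier results of these data known. Named genes were all members, per pathway list up to 4 genes of smallest p under the threshold per tested comparison and the 2 of highest level per length, and the 6 most and 3 least correlated with Gsdmc3 and 3 most with Gsdmd (protein-coding, established symbol, mean log2 CPM of at least 1, pseudocount 0.5). Aqp8, Hoxb13, Hoxd13, Lct, Fabp1, Onecut2, the Slc transporters, Synm, Mylk, Trpm5, Apoa4, Nlrp6, Sprr2a3, Casp8, Il18 and the genes at or near 0 were named after their values were seen. So were Krt8, Epcam, Vil1, Cdh1 and Cdx1 of the epithelial list. The values of 2 genes that this rule names are not reported here.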

Additional observations from a re-analysis of the deposited data

How the results depend on the processing

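The alternatives left the direction of the diet difference averaged over genotypes as it was for Gsdmc2, Gsdmc3, Gsdmc4 and Gsdmd. Within IEKO alone that of Gsdmc4 turned from -0.24 to 0.10 without IEKO chow library 1. Gsdmc2 and Gsdmc3 passed in 19 of 20 settings each and lost the call with the proximal small intestine score, at -0.63 and -0.48. Gsdmc4 also passed with the DESeq2 Wald test (-0.52) and with the smooth muscle score (-0.58). With 1 library left out in turn the ranges were -0.98 to -0.75 for Gsdmc2, -0.85 to -0.71 for Gsdmc3, -0.64 to -0.34 for Gsdmc4 and -0.20 to -0.090 for Gsdmd. Between genotypes on chow the corresponding ranges were -0.082 to 0.40, 0.09 to 0.38, -0.21 to 0.39 and -0.10 to 0.13, with no call. The 22 genes called on chow became 183 with DESeq2, 49 without a filter, 54 with the compared groups alone, 6 with the proximal score, 1 without both intermediate chow libraries, and 1 to 517 with 1 library left out. These 2 libraries are floxed chow 1 and IEKO chow 3. The latter lay between its fellows for 98.3% of the 234 genes that differed at least 2-fold between those. For floxed chow 1 this was 82.1% of only 28 genes, not far above the HFD libraries, at 57% to 78.9%. The 4613 genes called with diet became 2371 without both intermediate chow libraries, 39 with the proximal score and 3443 to 5354 with 1 library left out. Why the counts moved was not tested.

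Replicate numbers did not pair the libraries: of 18 same-numbered pairs across groups 5 had a correlation of deviations over 0.1 (range -0.149 to 0.19). With the number as a replicate block 14 genes were called on chow and 4613 with diet, and no call on the members changed, Gsdmc3 giving -0.76 with diet. With the proximal score the diet difference in floxed was -0.68 for Gsdmc3, and with the muscle score the difference in IEKO was -0.79. With 3 libraries per group, small differences of Gsdmd and Gsdmc4 may be missed, and the smallest detectable size was not worked out. Of 20 settings, 3 changed the diet call of Gsdmc4 and 1 that of Gsdmd.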
